A study of Mus musculus with 4 samples.

Results

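Arginine is cut by arginase into urea and ornithine, and ornithine is the starting point of the polyamines putrescine, spermidine and spermine. The genes described here are 8 of the 25814 genes listed for 4 keratinocyte (KC) libraries, and they were found by their symbols: the arginine-forming enzymes Ass1 and Asl, ornithine decarboxylase Odc1 with its regulators Oaz1 and Azin1, and the enzymes Amd1, Srm and Sms that build spermidine and spermine. These 8 genes were chosen by their place in the pathway, with earlier results of these libraries already known.

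The KCs were grown from the tail epidermis of adult 129/sv mice, either wild-type (WT) or Nfat5-/-, which lack the osmosensitive transcription factor NFAT5 in the whole body. The primary cultures received no treatment and stood in serum-free medium at 0.06 mM calcium, and poly(A) RNA was sequenced from 2 libraries of each genotype. The study worked with littermate WT animals and describes small size, kidney atrophy and permanent hypernatremia for the mice of this line. The series speaks of 2 independent experiments per genotype and the paper of KCs from sibling mice of both genotypes, but no label ties a library to an animal. The p-values thus measure the spread between these libraries, which may be partly technical.

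In skin, KCs carry out much of this metabolism. Arginase competes with nitric oxide synthases for arginine, and ornithine can go to polyamines or, through proline, to collagen. Polyamines are needed for growth, and ODC, their rate-limiting enzyme, is short-lived: antizyme (Oaz1) binds it and sends it to the proteasome, while antizyme inhibitor (Azin1) binds antizyme and frees ODC. Srm adds an aminopropyl group to putrescine to give spermidine and Sms adds another to give spermine, and both groups come from S-adenosylmethionine after its decarboxylation by Amd1.

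The libraries held 16219445 to 23494436 gene reads, and 3 reads, taken as the smallest measurable level, came to 0.128 to 0.185 CPM (counts relative to library size). This floor covers counting error only. The basal KC genes Krt5 and Krt14 lay between 4990 and 6985 RPKM (reads relative to exon length and to library size) in every library. Reads of Nfat5 itself did not separate the labels, with 1.67 and 3.0 RPKM in the WT libraries against 2.02 and 2.78 RPKM in those labelled Nfat5-/- (log2 fold change 0.09, SE 0.26, edgeR adjusted p = 0.913). No genotype direction below could therefore be checked against the targeted transcript in these libraries, and NFAT5 protein is not measured by them. The paper reports a western blot in which NFAT5 was absent from KCs of Nfat5-/- mice. In an edgeR quasi-likelihood test with Benjamini-Hochberg adjustment, 160 of 12614 tested genes passed an adjusted p of 0.05, 119 of them higher and 41 of them lower in the pair labelled Nfat5-/-.

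How far the reads belong to each gene differs between the members, because several of them have processed pseudogenes or a near-identical copy. Amd1 is the clearest case. Its intron-bearing gene (ENSMUSG00000075232) and the single-exon gene Amd2 (ENSMUSG00000063953), both on chromosome 10 of GRCm38, have coding sequences of 1005 bases that differ at 1 base in the GENCODE M21 transcripts. The stretch of 59 bases around it, 1 read long, is shown to make this visible. The differing base is in capitals (G796C, Amd1 base first, counted from 1 at the first base of the coding sequence), and the stretch spans bases 767 to 825.
Amd1-201: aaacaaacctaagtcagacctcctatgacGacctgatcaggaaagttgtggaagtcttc
Amd2-201: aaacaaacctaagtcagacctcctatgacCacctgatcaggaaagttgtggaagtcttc

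Of the 59-base stretches in the Amd1 transcripts, 82.2% recurred in Amd2, and 15.2% of the Amd1 exon reads had been placed at a single site. Oaz1 shared 42.9% of its stretches with the pseudogene Oaz1-ps, and 8.42% of its exon reads were placed uniquely. For Odc1 these shares were 27.1% of stretches, recurring in 15 other genes of which 13 are pseudogenes, and 61.3% of reads. Asl shared no stretch with another gene, and every exon read of it was placed at a single site. Srm shared 0.919% of its stretches and 99.2% of its reads were unique. In Ass1 and Sms nearly all reads counted as unique although many stretches recurred elsewhere. In Ass1, 52.3% of the stretches recurred in the pseudogene Gm5424 and yet 100% of its deposited exon reads counted as unique, and in Sms the shares were 27.5% and 98.9%. The levels of Amd1, Oaz1 and Odc1 thus depend on how shared reads were divided, whereas those of Asl and Srm hardly do.

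**Figure D1:**
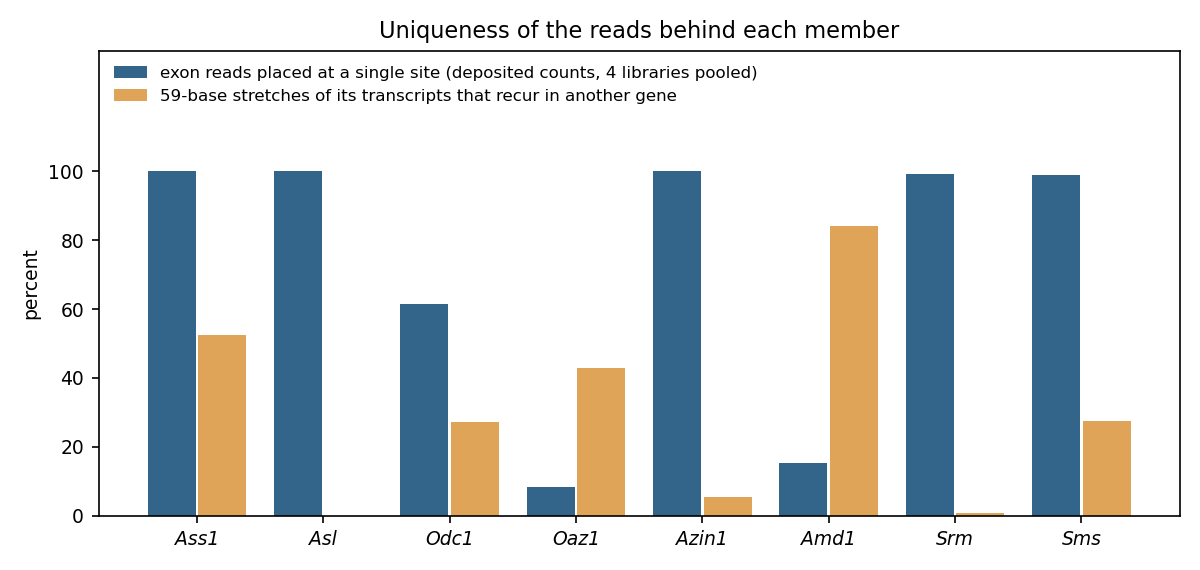
Bars give, for the 8 genes, the percent of exon reads that the deposited counts place at a single site (4 libraries pooled) and the percent of 59-base stretches of the gene's transcripts that recur in another gene. Asl and Srm have unique reads and few or no shared stretches, whereas Amd1 has 15.2% unique reads and 84.0% shared stretches.

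**Figure D2:**
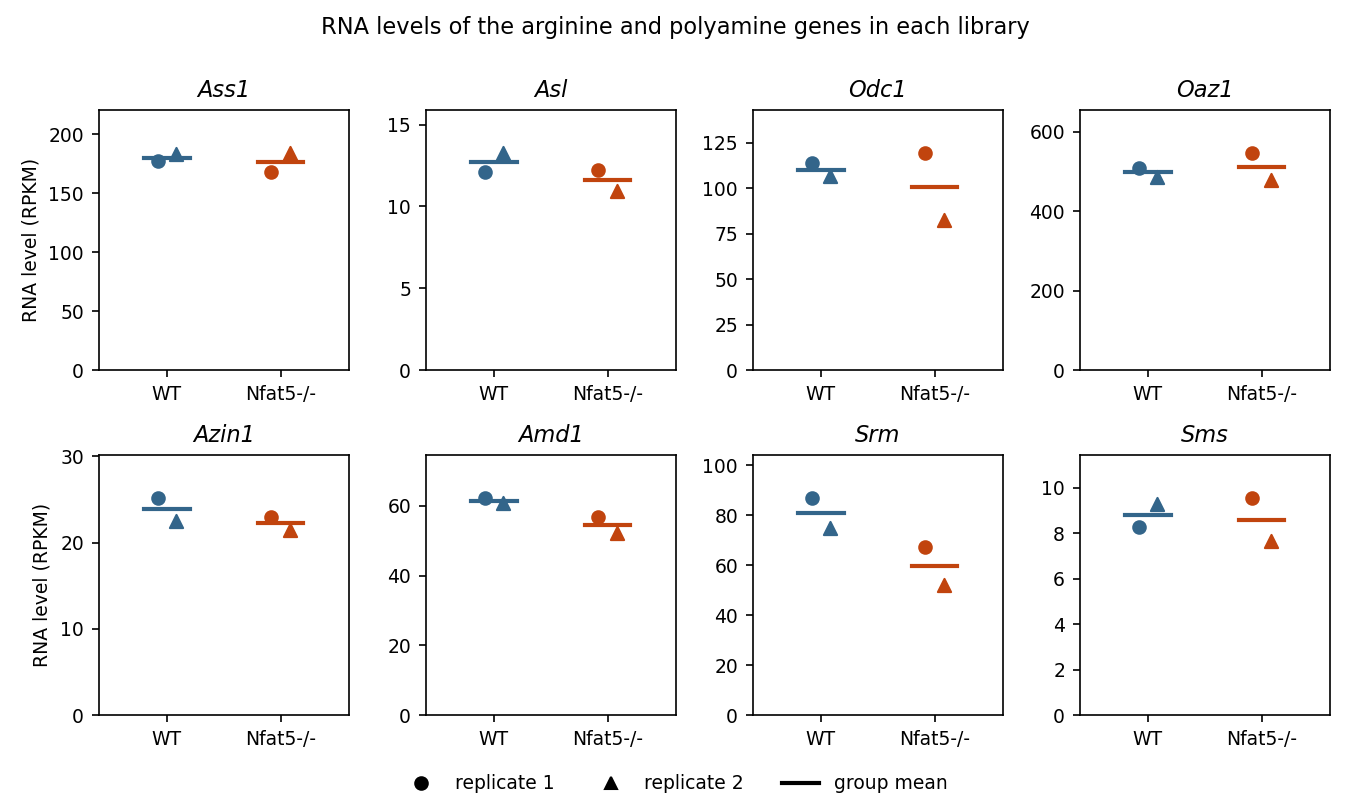
RNA level of each of the 8 genes in RPKM (linear axis from 0, scaled per gene) in the WT and Nfat5-/- libraries; circles are replicate 1, triangles replicate 2 and lines group means. In the pair labelled Nfat5-/-, Srm (67.1 and 52.1 RPKM) and Amd1 (56.7 and 52.2 RPKM) lie below WT without overlap, and the other genes overlap.

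The genes that remake arginine overlapped between the genotypes. Argininosuccinate synthase Ass1, which joins citrulline and aspartate (ENSMUSG00000076441, chromosome 2, 31470207 to 31520672, plus strand, GRCm38), had 177 and 183 RPKM in WT against 168 and 184 RPKM in the pair labelled Nfat5-/-. The groups overlapped, and the log2 fold change was -0.02 (SE 0.10, 95% interval -0.26 to 0.23, edgeR adjusted p = 0.958), which places the ratio between 0.834 and 1.17. Argininosuccinate lyase Asl, which releases arginine (ENSMUSG00000025533, chromosome 5, 130011258 to 130029247, minus strand), had 12.1 and 13.3 against 12.2 and 11.0 RPKM. Its groups overlapped too, with a log2 fold change of -0.11 (SE 0.11, interval -0.38 to 0.15, adjusted p = 0.705). Ass1 was 13.7 to 16.8 times as abundant as Asl per length of exon in every library.

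The first steps of the urea cycle were not measurable: Cps1 and Otc, which make carbamoyl phosphate and citrulline in liver, were listed at 0 RPKM in all 4 libraries, as was Nags. The mitochondrial aspartate carriers Slc25a13 and Slc25a12 gave log2 fold changes of -0.06 (adjusted p = 0.830) and -0.02 (adjusted p = 0.952).

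The block of Odc1 and its regulators held the most abundant of the 8 genes, Oaz1, while Azin1 lay below Ass1, Srm and Amd1. Odc1 (ENSMUSG00000011179, chromosome 12, 17544794 to 17551505, plus strand) had 114 and 106 RPKM in WT against 119 and 82.4 RPKM in the pair labelled Nfat5-/-. The highest and the lowest value were both in libraries labelled Nfat5-/-, so the groups overlapped, with a log2 fold change of -0.11 (SE 0.16, interval -0.49 to 0.27, edgeR adjusted p = 0.814). Without Nfat5-/- replicate 2, the low library, the estimate was 0.12. The interval is the widest among the 8 tested members and leaves ratios from 0.711 to 1.21 possible.

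Oaz1, antizyme (ENSMUSG00000035242, chromosome 10, 80826656 to 80829290, plus strand), was the highest of the 8 genes in each library, at 509 and 486 RPKM in WT against 546 and 478 RPKM in the pair labelled Nfat5-/-. The groups overlapped, with a log2 fold change of 0.06 (SE 0.10, interval -0.18 to 0.30, adjusted p = 0.838). Azin1, the inhibitor (ENSMUSG00000037458, chromosome 15, 38487427 to 38519266, minus strand), had 25.2 and 22.6 against 23.0 and 21.5 RPKM, again with overlap (-0.08, SE 0.11, interval -0.33 to 0.16, adjusted p = 0.769). These are RNA levels, and antizyme in particular is made by a frameshift during translation that RNA counts do not show.

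The proportions within this block can be read from the same libraries. Oaz1 was 4.48 and 4.57 times the RPKM of Odc1 in WT against 4.58 and 5.81 times in the pair labelled Nfat5-/-. Only Nfat5-/- replicate 2 stood apart, and it is also the library with the lowest Odc1. Odc1 was 4.52 and 4.72 times Azin1 in WT against 5.19 and 3.83 times in the others, so those values overlapped. Oaz1 was 20.2 and 21.5 times Azin1 in WT against 23.7 and 22.2 times in the others, apart by a narrow margin.

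Among the enzymes that build the polyamines, Srm and Amd1 were lower in the pair labelled Nfat5-/- without overlap, and neither passed the test. Spermidine synthase Srm (ENSMUSG00000006442, chromosome 4, 148591503 to 148594993, plus strand) had 86.8 and 74.9 RPKM in WT against 67.1 and 52.1 RPKM in the pair labelled Nfat5-/-. The highest of the latter was 0.897 times the lowest WT value, a narrow gap beside the spread within each pair. The means were 80.9 ± 8.48 and 59.6 ± 10.7 RPKM (SD, n = 2 each).

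For Srm the log2 fold change was -0.41 (SE 0.14, 95% interval -0.74 to -0.08), a ratio between 0.598 and 0.944. Its unadjusted p was 0.0208 and its edgeR adjusted p 0.248. An unadjusted p under 0.05 was reached by 14.6% of tested genes. The estimate was -0.26 without Nfat5-/- replicate 2 and -0.59 without Nfat5-/- replicate 1. With no filter on low counts Srm did pass, at an adjusted p of 0.0245, in a fit that called 1137 genes, whereas DESeq2 gave 0.212.

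Amd1, S-adenosylmethionine decarboxylase (chromosome 10, 40287458 to 40302186, minus strand), had 62.2 and 60.8 RPKM in WT against 56.7 and 52.2 RPKM in the pair labelled Nfat5-/-. This came to a log2 fold change of -0.16 (SE 0.098, interval -0.39 to 0.07, adjusted p = 0.519). Counting only uniquely placed exon reads, 15.2% of all its exon reads, moved it to -0.29, with an adjusted p of 0.286. The copy Amd2 had 7.36 and 7.75 RPKM in WT against 8.15 and 7.85 RPKM in the pair labelled Nfat5-/-, with 15.8% of its exon reads unique, so the division of reads between Amd1 and Amd2 is uncertain.

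Spermine synthase Sms (ENSMUSG00000071708, chromosome X, 157443855 to 157492287, minus strand) was the least abundant of this group. It had 8.28 and 9.29 RPKM in WT against 9.53 and 7.65 RPKM in the pair labelled Nfat5-/-, with overlap (log2 fold change -0.01, SE 0.14, interval -0.34 to 0.32, adjusted p = 0.986). Srm was 10.5 and 8.06 times Sms in WT against 7.04 and 6.80 times in the pair labelled Nfat5-/-. That proportion was lower in both of the latter, where Srm was lower too.

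All 8 genes could be tested and 0 passed an adjusted p of 0.05 in edgeR, where 1.27% of all tested genes did. At an unadjusted p under 0.05 there was 1, Srm, and DESeq2 also called 0. Srm and Amd1 were the 2 of 8 whose groups did not overlap, both lower, and 25.0% of all tested genes were lower without overlap. Of the 8, 7 had a log2 fold change below 0, with a median of -0.10 against -0.01 over all tested genes. The lowest bound of their 95% intervals was -0.74 (Srm) and the highest 0.32 (Sms) on the log2 scale, so a 2-fold change lay outside each of them.

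**Figure D3:**
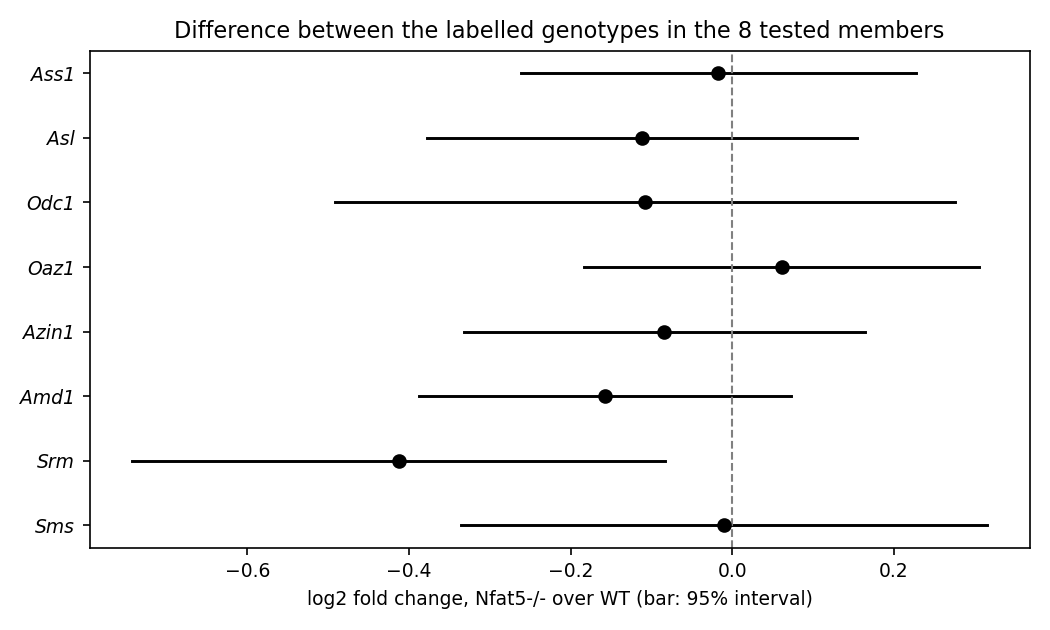
Log2 fold change (Nfat5-/- over WT, edgeR) of the 8 members that passed the filter; points with bars are estimates with 95% intervals. The estimates lie between -0.41 (Srm) and 0.06 (Oaz1), and only the interval of Srm leaves out 0.

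Ordered by RPKM, the genes kept the same order in both groups. It was Oaz1, Ass1, Odc1, Srm, Amd1, Azin1, Asl and Sms. In WT all neighbours in this order were apart, and in the pair labelled Nfat5-/- Srm and Amd1 overlapped while the other neighbours were apart. RPKM corrects for exon length, which makes this order of levels between genes readable, with the limits on shared sequence given for Oaz1, Odc1, Amd1, Ass1 and Sms.

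Around these genes, 63 further genes were grouped into 8 lists, 7 of arginine, polyamine and linked metabolism and 1 of the MYC network, and 53 of the genes could be tested. In edgeR, 2 were higher and 2 lower at an adjusted p of 0.05, beside background shares of 0.943% and 0.325%, and 49 did not pass. The median log2 fold change of the 53 was -0.07. The number of calls depended on single libraries, in fits where the group left with 1 library is assumed to vary like the other: 3 of the 53 passed without WT replicate 1, 11 without WT replicate 2, 1 without Nfat5-/- replicate 1 and 0 without Nfat5-/- replicate 2. The log2 fold changes of the 4 called genes kept their sign in each of these fits.

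Arginine uptake held one call in each direction. Slc7a3, a cationic amino acid transporter for arginine, lysine and ornithine, had 17.6 and 13.1 RPKM in WT against 5.34 and 2.97 RPKM in the pair labelled Nfat5-/-. It fell by 1.85 on the log2 scale (SE 0.26, adjusted p = 0.0276), and without Nfat5-/- replicate 2 the change was -1.51 with an adjusted p of 0.110.

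Slc6a14, a sodium- and chloride-driven carrier of neutral and cationic amino acids, went the other way, with 1.44 and 1.29 RPKM in WT against 4.68 and 2.91 RPKM. It rose by 1.44 on the log2 scale (SE 0.24, adjusted p = 0.0416), and lost the call without Nfat5-/- replicate 1 (log2 fold change 1.10, adjusted p = 0.148) or replicate 2 (1.71, adjusted p = 0.0800). The more abundant carriers did not pass. Slc7a1, the widespread cationic transporter, had 49.0 and 40.6 against 33.9 and 31.6 RPKM (log2 fold change -0.44, adjusted p = 0.161). Slc3a2, the heavy chain shared by several exchangers, had 102 and 79.2 against 69.5 and 59 RPKM (-0.48, adjusted p = 0.202). Of the 8 tested transport genes, 7 lay below 0, with a median of -0.38.

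Nitric oxide synthases compete with arginase for arginine, and none of the 7 tested genes of nitric oxide and arginine derivatives passed. Nos1 and Agmat were listed at 0 RPKM in every library, and Nos2, with 0 and 1 exon reads in WT against 10 and 4, did not pass the filter on low counts. Ddah1, which breaks down methylated arginines, had 12.1 and 12.7 RPKM in WT against 15.1 and 11.7 RPKM in the pair labelled Nfat5-/- (log2 fold change 0.13, adjusted p = 0.724). Its relative Ddah2, named after its values were seen, had 0.845 and 1.24 against 2.44 and 2.84 RPKM and did not pass (1.34, SE 0.30, adjusted p = 0.0996). Azin2, the second antizyme inhibitor, had 14.6 and 12.9 against 8.09 and 14.9 RPKM (-0.22, adjusted p = 0.781), with Nfat5-/- replicate 1 alone low.

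The branch between ornithine, glutamate and proline held the third call. Pycr1, the mitochondrial reductase for the last step of proline synthesis, had 11.1 and 10.1 RPKM in WT against 6.40 and 6.0 RPKM in the pair labelled Nfat5-/-. It fell by 0.76 on the log2 scale (SE 0.11, adjusted p = 0.0338), with groups far apart beside their spread. It lost the call without WT replicate 1 (-0.68, adjusted p = 0.0519), Nfat5-/- replicate 1 (-0.79, adjusted p = 0.131) or Nfat5-/- replicate 2 (-0.72, adjusted p = 0.219). Aldh18a1, the first enzyme of proline synthesis from glutamate, had 75.4 and 58.1 against 46.2 and 41.0 RPKM and did not pass (-0.59, adjusted p = 0.112). Of the 7 genes tested in this list, 5 lay below 0.

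Genes downstream of the polyamines showed no call. Sat1, whose enzyme acetylates spermidine and spermine for breakdown and export, had 85.4 and 63.6 RPKM in WT against 63.0 and 67.4 RPKM in the pair labelled Nfat5-/- (log2 fold change -0.17, adjusted p = 0.670). The second antizyme Oaz2 had 41.3 and 47.6 against 48.1 and 48.5 RPKM (0.13, adjusted p = 0.636). Sat1 and Oaz2 had 64.5% and 42.0% unique exon reads. The 9 tested genes of polyamine breakdown, antizymes and transport had a median of -0.17, with 4 above and 5 below 0.

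Spermidine donates the aminobutyl group of hypusine, a residue of the translation factor eIF5A. Eif5a itself was above Oaz1 in each library, at 563 and 608 RPKM in WT against 649 and 567 RPKM in the pair labelled Nfat5-/- (0.07, adjusted p = 0.808). The hydroxylase Dohh gave -0.07 (adjusted p = 0.822), but 1.22% of its exon reads were unique. All 4 genes of this list were tested and none passed.

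The methionine cycle supplies S-adenosylmethionine to Amd1, and methylthioadenosine, the by-product of Srm and Sms, is salvaged back to methionine. Mtap, which opens the salvage, had 30.6 and 39.6 RPKM in WT against 43.6 and 45.4 RPKM in the pair labelled Nfat5-/- (0.36, adjusted p = 0.299). Adi1, a dioxygenase late in the same route, had 60.4 and 51.5 against 41.2 and 39.7 RPKM (-0.45, adjusted p = 0.136). Both had groups apart, in opposite directions, and 0 of the 8 tested genes passed.

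MYC is a known activator of Odc1, and its network held the fourth call. The gene called, Mxd1, is among the transcription factor genes that the paper already reports as raised in Nfat5-/- KCs. The call is therefore not a separate result. Mxd1, a partner of MAX that opposes MYC, had 1.85 and 1.23 RPKM in WT against 3.69 and 5.05 RPKM in the pair labelled Nfat5-/-. It rose by 1.49 on the log2 scale (SE 0.25, adjusted p = 0.0450), and lost the call without Nfat5-/- replicate 1 (log2 fold change 1.72, adjusted p = 0.0998) or replicate 2 (1.22, adjusted p = 0.291). Myc had 50.4 and 34.2 against 38.2 and 37.3 RPKM (-0.14, adjusted p = 0.760) and Max gave 0.24 (adjusted p = 0.413). With the replicate number as a block, Slc7a3 and Slc6a14 passed (adjusted p = 0.00932 and 0.0451), while Pycr1 and Mxd1 did not (0.0524 and 0.0799).

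**Figure D4:**
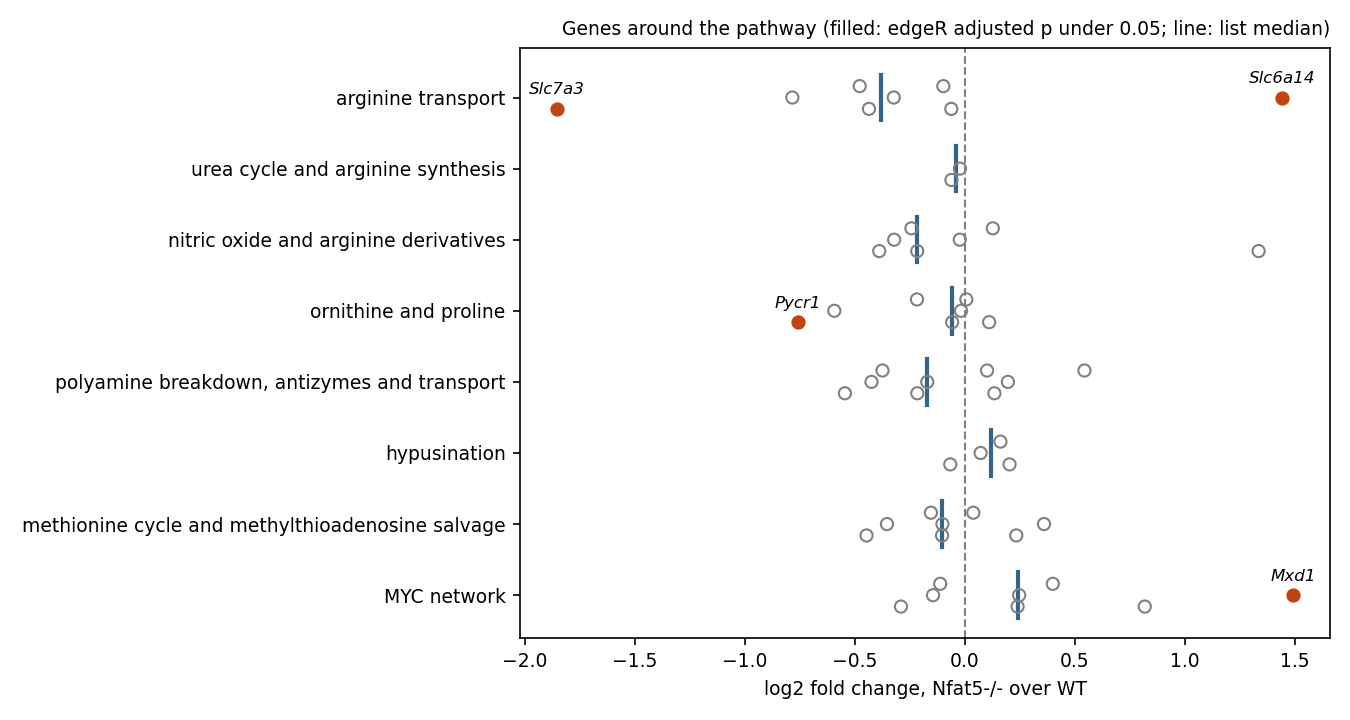
Log2 fold change (Nfat5-/- over WT, edgeR) of the 53 tested pathway genes in 8 lists; each circle is a gene, filled where the adjusted p is under 0.05, and the vertical bar is the list's median. The calls are Slc7a3 at -1.85, Pycr1 at -0.76, Slc6a14 at 1.44 and Mxd1 at 1.49, and the transport list has the lowest median, -0.38.

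Cells of other types can add to these levels, and in bulk RNA more cells of a type and more RNA per cell cannot be told apart. The summed RPKM of 9 macrophage and monocyte markers was 23.0 and 16.5 in WT against 19.1 and 19.4 in the pair labelled Nfat5-/-, and 0 of the 6 tested passed. Most of that sum was Cd68, while Ptprc lay between 0.012 and 0.176 RPKM and Adgre1 between 0.0968 and 0.237 RPKM. C1qa had 0.868 and 0.912 RPKM in WT against 0.798 and 0.755 RPKM in the others, and Mrc1 0.179 and 0.185 against 0.147 and 0.0877 RPKM. Both were lower without overlap. Lyz2, with 0.960 and 1.24 RPKM in WT against 1.42 and 1.43 RPKM in the others, was higher without overlap (edgeR adjusted p = 0.636). Of the 6 tested markers, 1 lay above 0 and 5 below, with a median log2 fold change of -0.32. Apart from Cd68, at 13.2 to 20.6 RPKM, the macrophage genes named here were thus low in all libraries. Each had more than 3 gene reads in every library, except Ptprc with 2 in WT replicate 1.

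The 5 suprabasal KC markers summed to 5.51 and 4.97 RPKM in WT against 7.31 and 10.5 RPKM in the pair labelled Nfat5-/-. The groups were apart, with Lor at 2.54 and 2.59 against 3.94 and 6.07 RPKM, but Krt10 ran the other way and 0 of 5 passed. The 6 basal KC markers summed to 12418 and 10776 against 10741 and 12215 RPKM, with 0 of 6 past the threshold.

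Smooth muscle markers moved with the labels. They summed to 184 and 151 RPKM in WT against 518 and 819 RPKM in the pair labelled Nfat5-/-, and 4 of 4 tested rose, although Des was at 0.0199 RPKM or 0 in every library. Acta2 made up most of the sum. Melanocyte markers were lower, at 7.29 and 6.99 against 2.04 and 2.89 RPKM, with 1 of 4 tested (Tyrp1) past the threshold. Langerhans cell markers summed to 304 to 382 RPKM, nearly all of it Epcam, while Cd207 was at 0.0344 RPKM or 0. The T cell, fibroblast and endothelial sums stayed at or below 1.13 RPKM, with none of their tested genes past the threshold. Of the 4 T cell genes 1 was tested, Thy1, with 2 and 5 gene reads in WT against 19 and 29 in the pair labelled Nfat5-/-. It was higher without overlap (log2 fold change 2.65, edgeR adjusted p = 0.102). The fibroblast gene Pdgfra was also higher without overlap (0.78, adjusted p = 0.439), while the 2 tested endothelial genes lay below 0. The part of any of these cell types in the values of Srm, Amd1 and the pathway genes was not tested.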

How the data were processed

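Poly(A) RNA of 4 KC libraries (2 WT, 2 Nfat5-/-, by their titles) had been sequenced as single reads. The authors trimmed the reads, aligned them to GRCm38 and counted them in the CLC Genomics Workbench at default settings. The deposited gene tables hold whole-number read counts per gene (total, exon, intron, junction and uniquely placed), not normalized, and RPKM values that the authors derived from exon reads, which were recomputed to within a relative deviation of 2.9e-04. RPKM was written with decimal commas. Strand use in counting is not given in the sources used here, so overlapping and antisense genes are uncertain.

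Total gene reads were tested with edgeR 4.0.16 in R 4.3.3 (filterByExpr, TMM factors 0.980 to 1.01, quasi-likelihood fit on genotype, two-sided, Benjamini-Hochberg adjustment over 12614 genes, threshold 0.05). An SE is the log2 fold change divided by the root of the quasi-likelihood F, and intervals are at the 95% level. Genes were named by rule: the members, pathway genes past the threshold and the 2 most abundant tested genes of each pathway list. Others are named for a list or a near-identical copy. Of the genes this rule names, 2 of 10 members and 1 pathway gene are not reported here. The members and lists were chosen with earlier results of these data known. Replicates 1 and 2 did not deviate together across genotypes (r = -0.07 across genes), and the replicate pairs differed by more than counting noise (chi-square per degree of freedom 16.7 and 17.3). The fit was tested on simulated data with known changes before use. At an adjusted p of 0.05 it recovered 182 of 195 genes changed 4-fold, beside 17 false calls. For genes changed 2-fold it recovered 155 of 196, beside 24 false calls. With no gene changed it made 4 false calls. Alternatives used RLE factors, library totals, other filters and read classes, DESeq2 1.42.0, limma 3.58.1 on log2(RPKM + 1) and log2(RPKM + 0.1), the replicate number as a block, and each library left out. Shared 59-base stretches were counted in GENCODE M21 transcripts, leaving out retained-intron transcripts of the members.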

Additional observations from a re-analysis of the deposited data

Results flagged for a closer look

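Intron reads, which the RPKM values leave out, stood higher in both libraries labelled Nfat5-/- than in both WT libraries for Srm and Odc1. Srm had 0.123 and 0.278 intron CPM (intron reads relative to the library's gene reads) in WT against 0.511 and 0.644 in the pair labelled Nfat5-/-, a mean of 0.577 in the latter against 0.20 in WT. These rest on 2 and 6 against 12 and 12 reads. Intron reads were 0.103% and 0.270% of the Srm gene reads in WT and 0.551% and 0.894% in the others, while the Srm exon level was lower there. Odc1 had 0.308 and 0.278 against 0.553 and 0.322, with a mean of 0.438 in the pair labelled Nfat5-/-, from 5 and 6 against 13 and 6 reads. The Odc1 groups were thus apart only by 0.308 against 0.322, on 5 and 6 reads. Other members were apart the other way: Ass1 had 2.16 and 1.71 in WT against 0.894 and 0.912 (35 and 37 against 21 and 17 reads), Amd1 1.54 and 1.34 against 1.28 and 0.965, and Azin1 0.617 and 0.601 against 0.383 and 0.107. Over all genes, the intron share was 1.79% to 1.97%. The share of all genes whose groups are apart in intron CPM was not counted, so these separations have no background beside them. None of these differences was tested.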

How the results depend on the processing

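With 2 libraries per group, the number of genes past the threshold (160) depended on single libraries and on the fit. Leaving out 1 library in turn gave 16 to 478 genes, with 16 without Nfat5-/- replicate 2, 31 without Nfat5-/- replicate 1, 268 without WT replicate 1 and 478 without WT replicate 2. It was 364 at an adjusted p of 0.1, 1137 with no filter on low counts and 427 with DESeq2. limma-trend gave 1 with either pseudocount, where 149 tested genes had no spread of RPKM in either group. With genes of a mean of at least 0.1 RPKM, an alternative chosen after seeing the data, it gave 168 and 167. The replicate block, which pairs libraries that share only a number, gave 132.

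Of the 8 tested members, 1 (Srm) passed with no filter on low counts, and 0 in each other alternative. Of the pathway genes 4 passed, against 11 with no filter, 2 with the replicate block, 0 with limma-trend at either pseudocount over all tested genes, and 0 to 11 when leaving out 1 library. Over 16 alternatives, Srm lay between -0.59 and -0.26 on the log2 scale, Amd1 between -0.29 and -0.11 and Asl between -0.18 and -0.05. Small differences changed sign when 1 library was left out. Odc1 ranged from -0.38 to 0.12 and Sms from -0.17 to 0.13 (each highest without Nfat5-/- replicate 2), Oaz1 from -0.0192 to 0.14 (lowest without Nfat5-/- replicate 1), Azin1 from -0.16 to 0.0058 (highest without WT replicate 1) and Ass1 from -0.0998 to 0.0625 (highest without Nfat5-/- replicate 1). Without WT replicate 2, Ass1 was 0.0013 and Sms 0.08. The cause was not tested.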
